A study of Mus musculus with 6 samples.

Results

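Heat shock proteins and DnaJ proteins are the molecular chaperones that fold newly made proteins and refold damaged ones. The genes described here are those whose symbols mark them as Hsp70 (Hspa), Hsp110 (Hsph1), Hsp90, Hsp60 and Hsp10 (Hspd1 and Hspe1), small heat shock proteins (Hspb) or DnaJ proteins of the classes A, B and C (Dnaja, Dnajb and Dnajc). This choice by name found 73 gene rows, with 72 different symbols, among 49671 rows, after 3 matching names of pseudogenes were left out. The choice used no measured value, although it was made with earlier results of these data known. Of the 73, 65 had enough counts to be tested, 6 had some counts but too few, and Dnajb8 and Dnajc5g had 0 counts in every library.

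Hsp70 binds exposed stretches of unfolded proteins in a cycle driven by ATP. DnaJ proteins deliver clients to it and start the cycle, and Hsp110 helps it release ADP. Hsp90 takes over clients such as kinases and steroid receptors at a later stage, Hsp60 with Hsp10 folds proteins inside mitochondria, and small heat shock proteins hold unfolded proteins without using ATP. Heat and other proteotoxic stress raise a subset of these genes through the transcription factor Hsf1, and unfolded protein in the endoplasmic reticulum raises another subset. In muscle, chaperones such as Hspb8 take part in the turnover of damaged sarcomere proteins.

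RNA was measured in muscle stem cells (MuSCs) of tibialis anterior (TA) muscles of female C57BL/6 mice, aged 4 to 6 months, at day 3 after injury. All mice received intramuscular BaCl2, which destroys myofibers, at 50 µL of a 1.2% solution per limb. Resolvin D1 (RvD1), a lipid mediator that promotes the resolution of inflammation, was given daily by intraperitoneal injection at 100 ng to 3 mice, and 3 control mice received vehicle with 0.1% ethanol. The sort took cells with CXCR4 and β1-integrin at the surface and left out those with CD45, CD11b, Sca-1, Ter119 or, per the labels, CD31. The 2 TA muscles of a mouse were pooled into 1 library, so each library is 1 animal. No uninjured or heat-treated cells are compared here, and the digestion for 60 minutes at 37°C that preceded the sort was common to both groups.

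Promoter sequence from RefSeq (GRCm38.p6) was at hand for 58 of the 72 symbols, as windows from 250 bases before to 50 bases after a transcription start. The nearly identical upstream stretches of Hspa1a and Hspa1b, the classic heat-inducible Hsp70 genes, are shown because these genes varied most among the members at or above a mean of 10 TPM. They cover the 150 bases before the start on the minus strand, at chr17:34972157-34972306 and chr17:34959239-34959388. They differ at 1 base. Capitals mark a heat shock element of 2 units (GAANNTTC or TTCNNGAA on either strand).

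Hspa1a: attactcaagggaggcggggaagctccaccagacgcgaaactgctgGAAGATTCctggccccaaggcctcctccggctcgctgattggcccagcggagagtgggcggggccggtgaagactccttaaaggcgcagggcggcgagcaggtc

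Hspa1b: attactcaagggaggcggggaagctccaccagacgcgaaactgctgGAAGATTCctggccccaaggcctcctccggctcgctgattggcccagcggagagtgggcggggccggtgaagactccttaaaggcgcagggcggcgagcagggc

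Hspd1 and Hspe1 lie head to head, and 285 bases of their windows are the same DNA, at chr1:55087898-55088182. The stretch shown for Hspd1 (chr1:55088053-55088082, minus strand) holds a heat shock element of 3 units (GAANNTTCNNGAA or TTCNNGAANNTTC) in 2 overlapping matches, in capitals. It is shown because the pair moved together across libraries, a pattern that other members also had. The stretch of Dnajb6 (chr5:29735844-29735873, plus strand) holds this element once.

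Hspd1: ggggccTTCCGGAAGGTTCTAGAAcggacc

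Dnajb6: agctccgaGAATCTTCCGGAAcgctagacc

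Hspa5 encodes the Hsp70 of the endoplasmic reticulum and Dnajc3 one of its DnaJ partners. Their stretches (chr2:34771990-34772089 and chr14:118937822-118937851, both plus strand) are shown because in capitals they hold the endoplasmic reticulum stress element (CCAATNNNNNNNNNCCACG on either strand), which marks a different stress response from that of Hspa1a.

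Hspa5: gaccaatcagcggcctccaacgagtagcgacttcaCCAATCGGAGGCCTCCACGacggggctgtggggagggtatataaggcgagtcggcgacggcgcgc

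Dnajc3: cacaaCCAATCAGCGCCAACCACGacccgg

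The heat shock element of 3 units was found in 4 of the 58 members with a window (Dnajb6, Hspd1, Hspe1 and Hsph1), and in 0.662% of the 27025 symbols with a window. The shorter element of 2 units, which every match of 3 units contains, was found in 16 of the 58 and in 17.0% of all symbols. The endoplasmic reticulum stress element was found in 3 of the 58 (Dnajc3, Hsp90b1 and Hspa5) and in 0.137% of all symbols. These matches are letters in a window, and binding of a factor was not measured.

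The libraries held 16148026 to 28149176 expected counts, a depth at which 3 counts correspond to 0.107 to 0.186 CPM (counts scaled to library size), with counting error only. The cells carried the transcripts of the myogenic lineage: 12 myogenic markers summed to 3431 to 4495 TPM (transcript abundance scaled to length and depth) per library, with Myod1 at 239 to 470 TPM and Myog at 818 to 1378 TPM, while Pax7, which marks MuSCs, was at 4.03 to 8.50 TPM. The summed level of 20 leukocyte markers was 54.8 to 82.3 TPM with RvD1 and 74.4 to 123 TPM with vehicle. Of the 18 tested, 17 were lower with RvD1. In edgeR 0 had an adjusted p under 0.05, and 5, all lower, had an unadjusted p under 0.05, beside 3.47% of all genes tested. Lyz2, the most abundant of them, was at 17.55 to 61.06 TPM, and Ptprc, which defines leukocytes, at 0.08 to 1.13 TPM. The summed level of 10 endothelial markers was 19.9 to 27.7 and 13.1 to 39.3 TPM. The part of these cells in the results was not tested, and in such bulk samples fewer cells of a type and less RNA per cell cannot be told apart. The library of RvD1 replicate 1 stood apart. Its 10 fibro-adipogenic markers summed to 1154 TPM against 494 to 630 TPM in the other libraries. Most of this sum came from Dcn (450 TPM) and Gsn (555 TPM), while Ly6a, Pdgfra, Thy1 and Col15a1 were not highest in this library. The 20 immediate early genes summed there to 3591 TPM against 2303 to 2721 TPM. RvD1 replicate 1 also held the lowest log2 CPM of 29.5% and the highest of 30.6% of all genes tested.

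No chaperone passed the test between RvD1 and vehicle. In the quasi-likelihood test of edgeR, 0 of the 65 members had a Benjamini-Hochberg adjusted p under 0.05 (smallest 0.971), against 0.0% of all 14494 genes. At an unadjusted p under 0.05, 2 members (3.08%) were found, Hspb11 and Dnajc19, both lower with RvD1, against 3.47% of all genes. DESeq2 also gave 0 members by adjusted p and the same 2 by unadjusted p, and limma-voom without surrogate variables gave 0 and 3. The log2 fold change of RvD1 over vehicle was positive for 28 members and negative for 37, with a median of −0.05 against 0.01 over all genes. On log2(TPM + 1), a scale on which the median of all genes moved up to 0.08, the split was 37 positive and 28 negative. All genes moved alike, from 7749 positive and 6745 negative on counts to 9837 and 4657. The median member lay below the median gene by 0.06 on counts and by 0.05 on log2(TPM + 1), values given without a test.

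The 95% intervals bound how large a change could have been missed. For 61 of the 65 members the interval of the fold change lay within 2-fold in either direction, against 11062 of all 14494 genes tested. It lay within 1.5-fold for 52 members and for 8253 of all genes. The members outside the 2-fold limit were the thinly expressed Hspa1l, Hspa12b, Dnajb3 and Dnajc28. Between mice of the same group, the median SD of the members was 0.16 log2 CPM, against 0.21 over all genes tested.

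**Figure D1:**
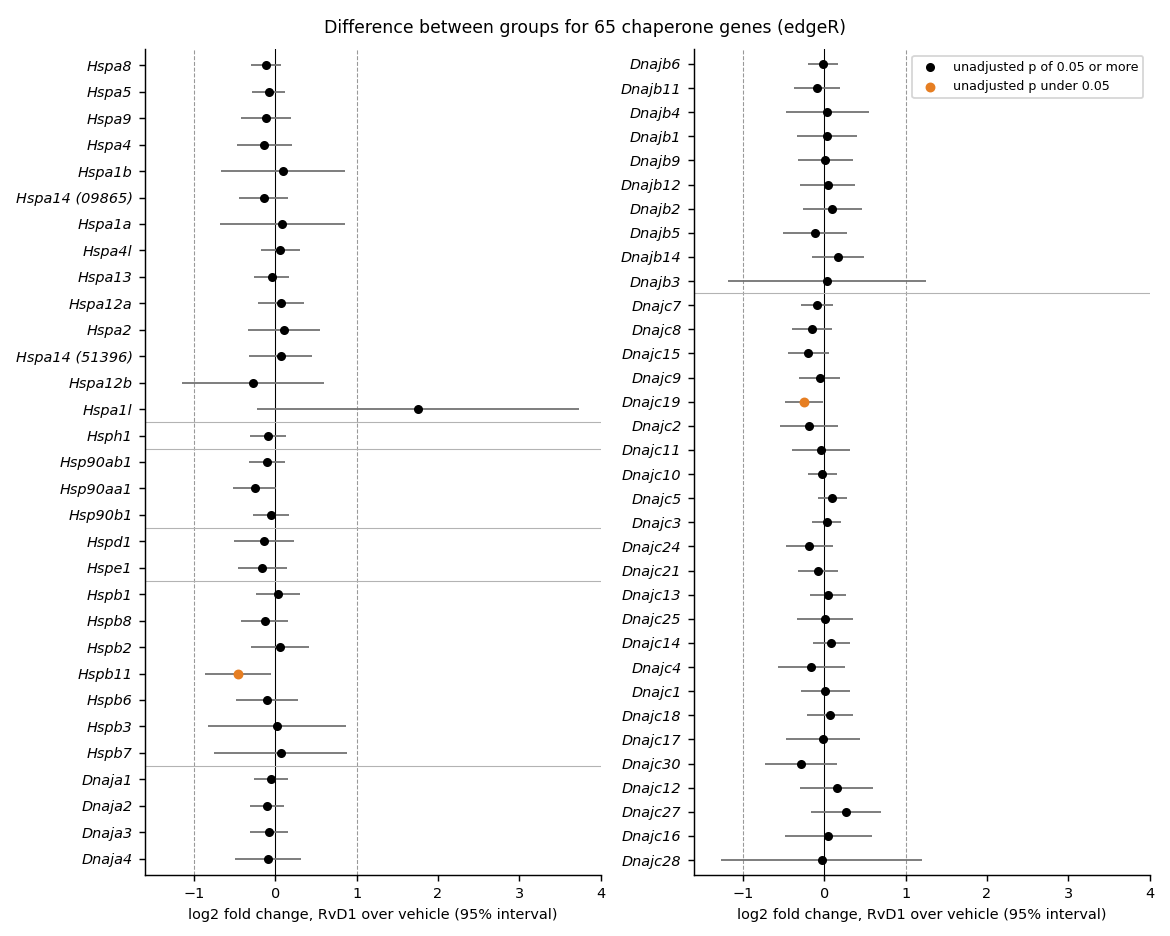
Log2 fold change of RvD1 over vehicle (x axis) for the 65 members tested, with 95% intervals from edgeR, grouped by family. Dashed lines mark 2-fold, orange points are Hspb11 and Dnajc19, and all intervals but those of Hspa1l, Hspa12b, Dnajb3 and Dnajc28 lie within the dashed lines.

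In TPM, a scale corrected for transcript length, the groups did not overlap for 5 members (7.69%), against 11.4% of all genes tested. Dnajc5 and Dnajc18 were higher in all RvD1 libraries, and Dnajc24, Hspa8 and Hspb11 were lower. In log2 CPM, a scale corrected for composition but not for length, it was also 5 members (7.69%), against 9.62% of all genes, namely Dnajc5 higher and Dnajc15, Dnajc19, Dnajc24 and Hspb11 lower. By direction in TPM, 3.08% of the members were higher and 4.62% lower, against 8.89% and 2.52% of all genes. In log2 CPM, 1.54% were higher and 6.15% lower, against 4.8% and 4.83%. These are 1 to 4 genes each, given without a test.

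The members made up 1.48% to 1.58% of all TPM, between 14777 and 15758 TPM per library. The Hspa family contributed 40.6% of this sum, Hsp90 27.2%, the Dnajc family 10.3%, and Hspd1 with Hspe1 8.99%. The small heat shock proteins contributed 2.65%. The 4 members above a mean of 1000 TPM, Hspa8, Hsp90ab1, Hsp90aa1 and Hspa5, accounted for 54.1%. At the other end, 23 members lay at or above 100 TPM and 63 at or above 1 TPM.

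**Figure D2:**
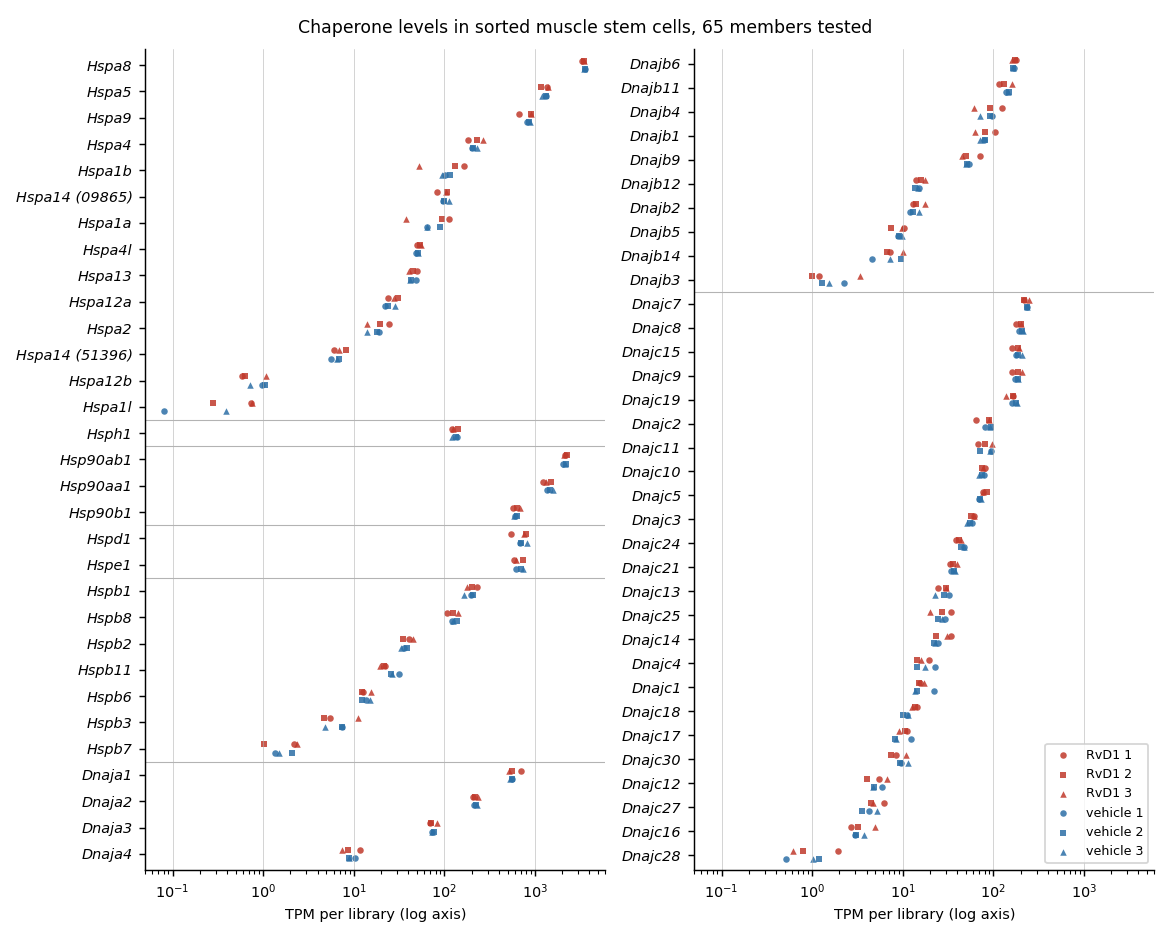
TPM of the 65 members tested in each of the 6 libraries (log axis), red for RvD1 and blue for vehicle, with 1 marker shape per replicate number. Members span from under 1 TPM for Hspa1l, whose value of 0 in vehicle replicate 2 cannot be drawn, to above 3000 TPM for Hspa8, and within a row red and blue points mostly overlap.

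Hspa8, the constitutive cytosolic Hsp70 that also strips clathrin from vesicles, was the most abundant member. It was at 3292, 3487 and 3463 TPM in RvD1 replicates 1, 2 and 3 and at 3546, 3574 and 3493 TPM in the vehicle replicates. All RvD1 libraries lay below all vehicle libraries, by a narrow margin: the log2 fold change was −0.12 (standard error 0.08, edgeR adjusted p = 0.971). In log2 CPM the groups overlapped. Transcript windows of 76 bases, the read length, also occurred in other annotated genes for 32.8% of its windows, Gm15459 first among them, so part of its reads had to be divided between genes by RSEM, the program that made the counts.

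Hspa1b and Hspa1a, neighbours on chromosome 17 (34956436 to 34959238 and 34969190 to 34972156 on GRCm38), encode the Hsp70 that cells make upon heat. Hspa1b was at 166, 133 and 52.0 TPM with RvD1 and at 102, 114 and 94.8 TPM with vehicle. Hspa1a was at 113, 93.4 and 37.8 TPM with RvD1 and at 64.0, 89.7 and 63.7 TPM with vehicle. For both genes the RvD1 group held the highest and the lowest library, with the vehicle libraries in between.

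Since 55.6% of the windows of Hspa1b and 61.5% of those of Hspa1a also occur in another gene, mainly in each other, their sum is the safer measure. It was 279, 226 and 89.8 TPM with RvD1 and 166, 204 and 158 TPM with vehicle, or 198 ± 97.4 TPM and 176 ± 24.4 TPM (SD, n = 3 each). RvD1 replicate 1 thus exceeded RvD1 replicate 3 by 3.10-fold in TPM and 3.74-fold in expected counts. The ratio of Hspa1b to Hspa1a stayed between 1.28 and 1.59 in all libraries.

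The group difference was small beside this spread. The log2 fold change was 0.09 (standard error 0.34, 95% interval −0.67 to 0.85) for Hspa1b and 0.08 (standard error 0.34, interval −0.69 to 0.86) for Hspa1a, both with an edgeR adjusted p = 0.988. The within-group SD of both was 0.64 log2 CPM, at the 91.6th percentile of all genes. Without RvD1 replicate 3 the log2 fold changes were 0.44 and 0.43 (edgeR unadjusted p = 0.0071 and 0.0386, adjusted p = 0.788 for both), and without RvD1 replicate 1 they were −0.21 and −0.19. The sign turned in 6 of 17 alternatives for Hspa1b and in 7 of 17 for Hspa1a, so no direction can be given.

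Hspa1l, a relative of Hspa1a that lies beside it and is known from testis, gave the largest fold change of the members tested. Its expected counts were 23.1, 11.6 and 19.6 with RvD1 and 1.94, 0 and 11.1 with vehicle, or 0.74, 0.28 and 0.76 TPM against 0.08, 0 and 0.39 TPM. The log2 fold change of 1.75 had a standard error of 0.87 and an interval from −0.22 to 3.73 (edgeR unadjusted p = 0.0752, adjusted p = 0.971). Without vehicle replicate 3 the value was 3.69, and without vehicle replicate 2 it was 1.19 (edgeR adjusted p = 1.00 for both), so single libraries set its size. Of its windows, 71.1% also occur in the overlapping gene Gm10501, and some occur in Hspa1a and Hspa1b, so its counts are uncertain.

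The Hsp110 chaperones exchange nucleotide on Hsp70. Hsph1 was at 123, 143 and 125 TPM with RvD1 and at 137, 135 and 123 TPM with vehicle (log2 fold change −0.09, standard error 0.10). Hspa4, of the same class, was at 181, 228 and 264 TPM with RvD1 and 200, 205 and 229 TPM with vehicle. In both genes the groups overlapped. Hspa12b, a distant Hsp70 relative associated with endothelium, was below 1.1 TPM in every library, and its log2 fold change was −0.28 (standard error 0.39).

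Hsp90ab1, the constitutive cytosolic Hsp90, was at 2147, 2277 and 2111.5 TPM with RvD1 and at 2034, 2189.8 and 2169.5 TPM with vehicle. Hsp90aa1, its stress-responsive counterpart, was at 1243, 1491 and 1311 TPM with RvD1 and at 1372, 1465 and 1582 TPM with vehicle. Neither pair of groups separated. The log2 fold changes were −0.10 (standard error 0.10) and −0.25 (standard error 0.12, edgeR unadjusted p = 0.0598, adjusted p = 0.971). The value for Hsp90ab1 was 0.03 on log2(TPM + 1), below the all-gene median of 0.08 on that scale, while the sign for Hsp90aa1 stayed negative in all 17 alternatives, between −0.35 and −0.13. Windows shared with other genes, Gm12346 first among them, made up 42.6% of those of Hsp90aa1 and 0.476% of those of Hsp90ab1.

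Mitochondria import most of their proteins unfolded and hold their own chaperones. All 7 members of this list (Hspd1, Hspe1, Hspa9, Dnaja3, Dnajc11, Dnajc15 and Dnajc19) had a negative log2 fold change, with a median of −0.14 against 0.01 over all genes. In edgeR 0 had an adjusted p under 0.05. An unadjusted p under 0.05 was found for 1, Dnajc19, already among the 2 members given above, beside 3.47% of all genes tested. In log2 CPM, RvD1 replicate 1 was the lowest library for 6 of the 7, with a summed level of 2267 TPM against 2934 and 2814 TPM in RvD1 replicates 2 and 3 and 2610, 2773 and 2999 TPM with vehicle. Without RvD1 replicate 1, 3 of the 7 were higher and 4 lower, with a median of −0.01.

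Hspd1, which forms the Hsp60 barrel, was at 551, 804 and 762 TPM with RvD1 and at 677, 709.5 and 824 TPM with vehicle. Hspe1, its Hsp10 lid, was at 583, 731 and 625 TPM with RvD1 and at 612, 700.3 and 737 TPM with vehicle. The groups overlapped, with log2 fold changes of −0.14 (standard error 0.16) and −0.16 (standard error 0.13). RvD1 replicate 1 was lowest and vehicle replicate 3 highest for both genes. In log2 CPM the same held for other members, among them Hspa9, Hspa4, Hsp90aa1, Dnaja2 and Dnajc8, so it was not particular to this pair. Of the windows of Hspd1, 30.7% also occur elsewhere, with Hspd1-ps3 the first of those genes.

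Dnajc19 belongs to the motor that pulls proteins into the matrix. It was at 165, 163 and 139 TPM with RvD1 and at 159, 178 and 183 TPM with vehicle, so that vehicle replicate 1 lay among the RvD1 libraries in TPM. In log2 CPM the groups did not overlap, and the log2 fold change was −0.25 (standard error 0.10, interval −0.48 to −0.01, edgeR unadjusted p = 0.0418, adjusted p = 0.971). The unadjusted p passed 0.05 without RvD1 replicate 2 (0.0296) and lay between 0.0517 and 0.137 without any other single library. On log2(TPM + 1) it was 0.24. The pseudogene Dnajc19-ps, not a member, was listed at 1.86 to 6.80 TPM.

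**Figure D3:**
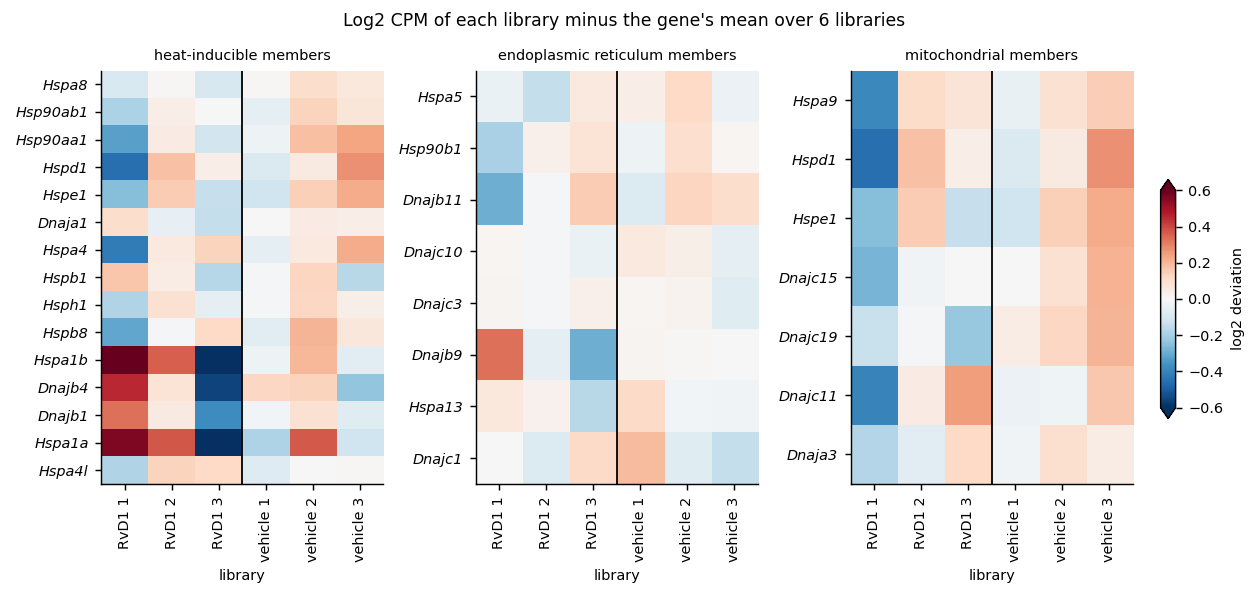
Log2 CPM of each library minus the mean of the gene over the 6 libraries, for the heat-inducible, endoplasmic reticulum and mitochondrial members, with RvD1 libraries left of the black line. RvD1 replicate 1 is blue (low) for all 7 mitochondrial members and dark red (high) for Hspa1a and Hspa1b, which are dark blue in RvD1 replicate 3, beyond the color limit of 0.6.

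The list of 15 heat-inducible members held both Hspa1 genes, Hspa8, Hspa4, Hspa4l, Hsph1, the cytosolic Hsp90 genes, Hspd1, Hspe1, Hspb1, Hspb8, Dnaja1, Dnajb1 and Dnajb4. It thus includes Hspa8 and Hsp90ab1, called constitutive above, and Hspd1 and Hspe1, which are also in the mitochondrial list. Of the 15, 6 had a positive and 9 a negative log2 fold change, with a median of −0.09. None had an adjusted p under 0.05 in edgeR, and 0 had an unadjusted p under 0.05. On log2(TPM + 1) 9 were positive and 6 negative, with a median of 0.03 against 0.08 over all genes. In log2 CPM, RvD1 replicate 1 was the highest library for 6 of the 15 and the lowest for 8, and RvD1 replicate 3 was the lowest for the remaining 7, so that on this scale no vehicle library was the lowest for any. In TPM, vehicle replicate 1 was the lowest for Hsp90ab1 and Hspa4l and vehicle replicate 3 for Hspb1. Of all genes tested, 29.5% were lowest in RvD1 replicate 1 on the log2 CPM scale, and 17.3% were lowest in RvD1 replicate 3.

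The 6 genes highest in RvD1 replicate 1 in log2 CPM were Hspa1a, Hspa1b, Dnaja1, Dnajb1, Dnajb4 and Hspb1, and on this scale each of them was lowest in RvD1 replicate 3. Dnajb1, the main DnaJ partner of inducible Hsp70, was at 105, 81.6 and 63.2 TPM with RvD1 and at 78.5, 80.8 and 71.8 TPM with vehicle (log2 fold change 0.03, standard error 0.16). Dnajb4, a close relative named after its values were seen, was at 125, 91.4 and 61.8 TPM with RvD1 and at 95.5, 91.7 and 70.7 TPM with vehicle. Immediate early genes, which include Fos and Egr1, shared only the high side of this pattern in part. In log2 CPM, 14 of 20 were highest in RvD1 replicate 1, while 6 were lowest in RvD1 replicate 3 and 7 in vehicle replicate 3. The part of these genes or of the fibro-adipogenic transcripts in the pattern was not tested.

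**Figure D4:**
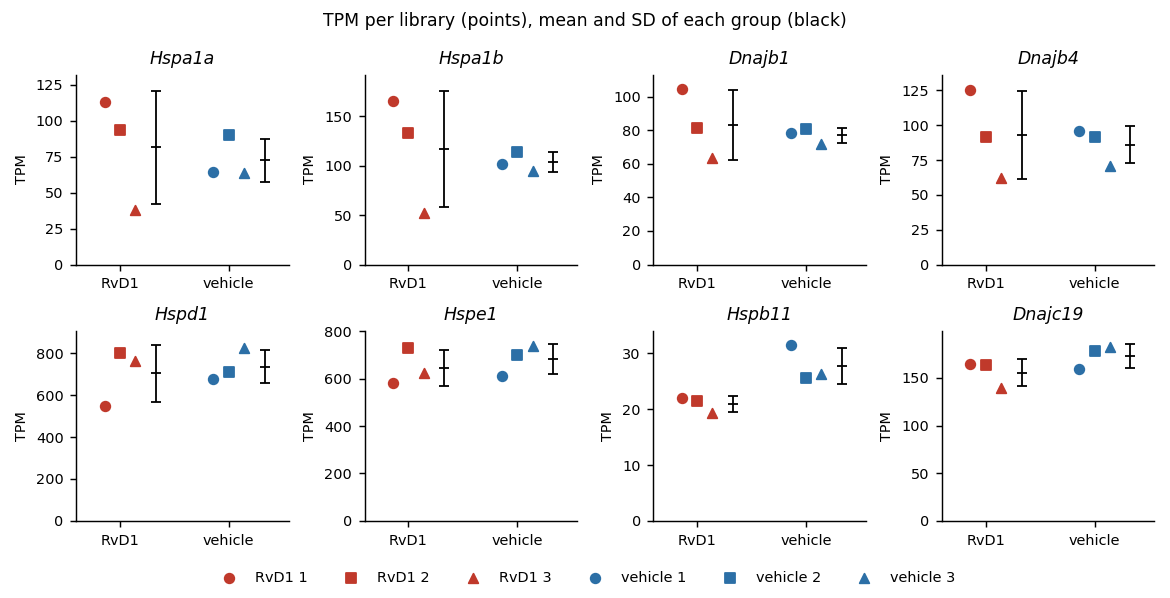
TPM of 8 members per library (y axis from 0), with the mean and SD of each group in black. Hspa1a, Hspa1b, Dnajb1 and Dnajb4 are highest in RvD1 replicate 1 (circle) and lowest in RvD1 replicate 3 (triangle), with the vehicle values between them, Hspd1 and Hspe1 are lowest in RvD1 replicate 1, and Hspb11 is lower in all RvD1 libraries.

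The endoplasmic reticulum has its own Hsp70, Hsp90 and DnaJ proteins. Hspa5 (BiP) was at 1352, 1173 and 1385 TPM with RvD1 and at 1321, 1325 and 1193 TPM with vehicle. Its log2 fold change was −0.08 (standard error 0.09) and was 0.02 on log2(TPM + 1), both below the all-gene medians of 0.01 and 0.08. Dnajb11, which works with BiP on secretory proteins, was at 115, 132 and 162 TPM and at 137, 150.0 and 144 TPM. Dnajc3, which is known to inhibit the kinase PERK, was the least variable member, at 60.7, 56.5 and 60.5 TPM with RvD1 and 57.6, 55.5 and 51.7 TPM with vehicle and with a within-group SD of 0.04 log2 CPM. Its interval ran from −0.15 to 0.21.

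Dnajb9, which helps degrade misfolded proteins of the endoplasmic reticulum, was the most variable of these genes. At 70.6, 50.5 and 44.6 TPM with RvD1 and 53.5, 50.7 and 50.2 TPM with vehicle, RvD1 replicate 1 was highest and RvD1 replicate 3 lowest, as for Hspa1a and Dnajb1. Hspa13, named after its values were seen, had these extremes in TPM too, at 49.6, 45.1 and 41.2 TPM with RvD1 and 48.5, 42.4 and 41.9 TPM with vehicle. Over the list of 8 endoplasmic reticulum members (Hspa5, Hspa13, Hsp90b1, Dnajb9, Dnajb11, Dnajc1, Dnajc3 and Dnajc10), 3 had a positive and 5 a negative log2 fold change, with a median of −0.04 (6 positive and 2 negative on log2(TPM + 1), where the median was 0.03 against 0.08 over all genes), and 0 had an unadjusted p under 0.05 in edgeR. Their summed level was 2318, 2180 and 2472 TPM with RvD1 and 2328, 2349 and 2159 TPM with vehicle, and the groups overlapped.

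Among the small heat shock proteins, Hspb1 (Hsp25 in mouse), which also caps actin filaments, was at 231, 201 and 180 TPM with RvD1 and 195, 205 and 167 TPM with vehicle (log2 fold change 0.03, standard error 0.12). Of its windows, 46.3% also occur in other genes, Hsp25-ps1 first among them. Hspb8, which acts with Bag3 in the removal of damaged sarcomere proteins, was at 107, 125 and 143 TPM and at 121, 139 and 126 TPM (log2 fold change −0.13, standard error 0.13). Groups overlapped for both.

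Hspb11 carries the family name but is a subunit of the intraflagellar transport complex of cilia. It was at 22.0, 21.4 and 19.3 TPM with RvD1 and at 31.5, 25.6 and 26.3 TPM with vehicle, or 20.9 ± 1.41 TPM and 27.8 ± 3.23 TPM (SD, n = 3 each). Every RvD1 library lay below every vehicle library on both scales. The log2 fold change was −0.46 (standard error 0.18, interval −0.86 to −0.06), with the smallest p of the members (edgeR unadjusted p = 0.0289, adjusted p = 0.971). It stayed between −0.51 and −0.37 in all 17 alternatives, with an unadjusted p of 0.0733 without RvD1 replicate 3, 0.116 without vehicle replicate 1 and 0.0559 without vehicle replicate 2. Its expected counts were between 111 and 200.

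The class A DnaJ proteins are the general partners of Hsp70. Dnaja1 was at 704, 553 and 524 TPM with RvD1 and at 556, 555 and 536 TPM with vehicle, with the group mean raised by RvD1 replicate 1. Its log2 fold change was −0.05 (standard error 0.09) on counts and 0.10 on log2(TPM + 1), against all-gene medians of 0.01 and 0.08. Dnaja2 was at 207, 220 and 238 TPM and at 213, 225 and 231 TPM (log2 fold change −0.10, standard error 0.09). All 4 class A genes had a negative log2 fold change on counts, of which 1, Dnaja1, was positive on log2(TPM + 1).

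In class B, Dnajb6, a suppressor of protein aggregation that is mutated in a form of limb-girdle muscular dystrophy, was the most abundant, at 179, 174 and 161 TPM with RvD1 and 168, 166 and 166 TPM with vehicle. Its log2 fold change was −0.02 (standard error 0.08). Dnajb14, a tail-anchored protein of the endoplasmic reticulum outside the list of 8, was at 7.27, 6.76 and 10.1 TPM and at 4.6, 9.55 and 7.21 TPM (log2 fold change 0.16, standard error 0.14). Of the 10 class B genes tested, 7 had a positive and 3 a negative log2 fold change, none with an unadjusted p under 0.05.

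Class C is the largest and most varied group, with 24 of 28 genes tested, 10 with a positive and 14 with a negative log2 fold change. Dnajc7, which binds both Hsp70 and Hsp90, was at 221, 216 and 246 TPM with RvD1 and at 237, 236 and 236 TPM with vehicle. Dnajc8, a protein linked to splicing, was at 178, 204 and 202 TPM and at 193, 205 and 212 TPM. The log2 fold changes of −0.09 (standard error 0.08) and −0.16 (standard error 0.11) were within the range of the replicates.

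The largest positive and negative differences of class C concerned genes of low level. Dnajc27, a small GTPase with a J domain, was at 6.16, 4.44 and 4.66 TPM with RvD1 and 4.24, 3.53 and 5.15 TPM with vehicle (log2 fold change 0.27, standard error 0.19, edgeR unadjusted p = 0.197). Dnajc30, a mitochondrial protein, was at 8.42, 7.39 and 10.8 TPM and 9.68, 9.31 and 11.4 TPM (log2 fold change −0.28, standard error 0.19, unadjusted p = 0.183), and 22.8% of its windows belong to the overlapping gene Bud23.

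Of the 24 class C genes tested, 3 had groups that did not overlap in TPM, beside 11.4% of all genes tested. These 3 were named after their values were seen. Dnajc5, a vesicle protein also called cysteine string protein, was at 77.9, 84.5 and 77.8 TPM with RvD1 and 68.7, 72.0 and 72.6 TPM with vehicle (log2 fold change 0.10, standard error 0.08). Dnajc18 was at 14.2, 13.5 and 12.8 TPM and 11.2, 9.98 and 11.3 TPM, but its log2 fold change on counts was only 0.06 (standard error 0.12). Dnajc24, an enzyme of diphthamide synthesis, was at 38.3, 41.8 and 44.2 TPM and 48.0, 44.2 and 47.1 TPM (log2 fold change −0.18, standard error 0.13). None of the 3 had an unadjusted p under 0.05 in edgeR.

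The partners of these chaperones were read from a list of 35 co-chaperones and heat shock factors, of which 34 were tested. Of these, 12 had a positive and 22 a negative log2 fold change, and 0 had an adjusted p under 0.05 in edgeR (smallest 0.971). Only 1, Bag1, a nucleotide exchange factor of Hsp70, had an unadjusted p under 0.05, beside 3.47% of all genes tested. Bag1, named after its values were seen, was at 177, 179 and 189 TPM with RvD1 and at 201, 206 and 194 TPM with vehicle (log2 fold change −0.22, standard error 0.08, unadjusted p = 0.0279). DESeq2 and limma-voom without surrogate variables also gave 0 by adjusted p and 1 by unadjusted p. With a surrogate variable removed, limma-voom gave 0 and 3 of 35, beside 11.2% of all genes by unadjusted p. Without RvD1 replicate 1, which was the lowest library in log2 CPM for 24 of the 34, 18 were higher and 16 lower.

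Hsf1, the factor that switches on heat shock genes, was at 75.6, 71.9 and 79.9 TPM with RvD1 and 66.0, 64.99 and 65.7 TPM with vehicle. Its groups did not overlap on either scale, while the log2 fold change was 0.14 (standard error 0.09, edgeR unadjusted p = 0.151, adjusted p = 0.971). Hsf2 was at 10.1 to 13.4 and 10.6 to 11.9 TPM. Bag3, an Hsp70 exchange factor that Hsf1 also drives, was at 118, 78.1 and 79.8 TPM and at 90.02, 88.9 and 65.9 TPM, with RvD1 replicate 1 highest. Stip1, which passes clients from Hsp70 to Hsp90, was at 296, 338 and 369 TPM and at 314, 328 and 333 TPM, with RvD1 replicate 1 lowest. The log2 fold changes of Hsf2, Bag3 and Stip1 were −0.01, 0.09 and −0.04, each smaller than its standard error.

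The 8 members that were not tested contributed few reads. Dnajc6, which uncoats clathrin vesicles with Hspa8, had expected counts of 16, 22 and 7 with RvD1 and 3, 7 and 2 with vehicle. Dnajc22 had 1, 3 and 10 counts with RvD1 and 3, 0 and 0 with vehicle. The rest, Dnajb7, Dnajb13, Dnajc5b and Hspb9, had at most 12.4 expected counts in any library, too few for the main test. The symbol Hspa14 was listed for a pair of gene identifiers whose exons overlap, and both rows were counted as members, at means of 100.1 and 6.71 TPM. In GENCODE M21 the row at 6.71 TPM is named Gm45902, not Hspa14.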

How the data were processed

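RNA of sorted MuSCs was read on 1 end over 76 bases. The authors aligned the reads to mm10 with STAR 2.5.0a and deposited 3 RSEM gene tables over the 6 libraries, of expected counts, TPM and FPKM. The RSEM version and annotation are not given in the sources used here. The labels and the methods differ on RNA input (1 or 10 ng).

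Expected counts were rounded and tested with edgeR 4.0.16 (R 4.3.3): TMM factors, filterByExpr by group, quasi-likelihood test of RvD1 against vehicle, Benjamini-Hochberg adjustment over all 14494 genes tested, threshold 0.05. The fold change divided by the root of the F value gave the standard error. Log2 CPM used a prior count of 2. TPM, which is per length, was used for levels and sums. Each library is 1 mouse, so the p-values set the group difference against the spread between libraries. In that spread, differences between mice and between preparations cannot be told apart. Depth was 16148026 to 28149176 expected counts, and the precision given covers counting error only where a floor is named. The code was tested on simulated data.

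Alternatives were DESeq2 1.42.0, limma 3.58.1 (voom, also with 1 surrogate variable from sva 3.50.0 removed), limma on log2(TPM + 1), log2(TPM + 0.1) and log2(FPKM + 1), other size factors and filters, a replicate block, and leaving out each library. Windows of 76 bases were compared over GENCODE M21 transcripts (GRCm38), which also gave the positions of genes.

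The members and lists were chosen with earlier results of these data known. Members named with values were the 2 most abundant of each family, those with an unadjusted p under 0.05, the 3 largest differences in each direction, and Hspa1a, Hspa1b, Hspa5, Hspb1, Hspb8, Dnajb1, Dnajb9 and Dnajc3. From other lists, 8 genes were set by name, and the 2 with the smallest unadjusted p were added. Hspa4, Dnajb4, Dnajc5, Dnajc18, Dnajc24, Hspa13, Dnajc6 and Dnajc22 were named after their values were seen.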

Additional observations from a re-analysis of the deposited data

How the results depend on the processing

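No member passed the adjusted threshold under any of the 17 alternatives, where the smallest adjusted p of a named member was 0.257. Over all genes, 12 were called by edgeR with every gene of at least 1 count, and 0 to 1 when single libraries were left out (1 without RvD1 replicate 3). The median log2 fold change of the members was 0.0247 on both log2(TPM + 1) and log2(TPM + 0.1), against −0.045 on counts, while the median of all genes was 0.077, 0.087 and 0.014, so that the members lay 0.052, 0.062 and 0.060 below it. It was −0.095 to −0.029 without single libraries. In FPKM the log2 ratio of the summed levels was −0.064 for all members and −0.066 for the Hspa family, against −0.016 and −0.018 in TPM. At an unadjusted p under 0.05 the count of members ran from 1 to 9. With a surrogate variable removed, 9 of 71 members had an unadjusted p under 0.05, as had 11.2% of all genes. Deviations of same-numbered libraries correlated at 0.31, −0.0007 and 0.126, and those of differently numbered libraries at −0.246 to 0.173. These few correlations cannot decide whether replicate numbers pair the libraries. With the replicate block 0 genes were called, and 4 members and 6.18% of all genes had an unadjusted p under 0.05. Of the 27 named members, 15 kept their sign in every alternative and 12 did not. The cause of these shifts was not tested. With 3 mice per group, precision is limited to the intervals given for each gene.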

Other observations

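Chaperones outside the heat shock and DnaJ families were read from a list of 25 genes, of which 23 were tested. Of these, 3 had a positive and 20 a negative log2 fold change, with a median of −0.14 against 0.01 over all genes, and 0 had an adjusted p, and 0 an unadjusted p, under 0.05 in edgeR. The 8 tested subunits of TRiC, the cytosolic chaperonin that folds actin and tubulin, were all negative, with a median of −0.17 and a smallest unadjusted p of 0.147. Their summed level was 5082, 6275 and 6932 TPM with RvD1 and 6087, 6446 and 6750.1 TPM with vehicle. In log2 CPM, RvD1 replicate 1 was the lowest library for all 8. Without it all 8 stayed negative, with a median of −0.04. The 6 prefoldin subunits, which hand actin and tubulin to TRiC, were negative on counts, with a median of −0.13, while on log2(TPM + 1) 3 were positive and 3 negative.

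Cryab, a small heat shock protein abundant in muscle, was at 253, 174 and 209 TPM with RvD1 and 186, 199 and 190.0 TPM with vehicle. Serpinh1, the collagen chaperone, was at 765, 783 and 845 TPM and at 815, 731 and 722 TPM. Hyou1, an Hsp110 relative of the endoplasmic reticulum, was at 23.2, 29.7 and 31.5 TPM and at 28.5, 29.5 and 27.9 TPM. Trap1, the mitochondrial Hsp90, was at 166, 162 and 185 TPM and at 183, 183 and 172 TPM (log2 fold change −0.15, standard error 0.09, edgeR unadjusted p = 0.115, adjusted p = 0.971). In TPM the groups overlapped for each of the 4 genes, and in log2 CPM for all but Trap1, which was lower in every RvD1 library.

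Of the 20 immediate early genes, 13 had a positive and 7 a negative log2 fold change, with a median of 0.08 against 0.01 over all genes. In edgeR 0 had an adjusted p under 0.05, and 2 had an unadjusted p under 0.05, beside 3.47% of all genes tested. Klf4, a transcription factor, was at 26.0, 24.9 and 24.9 TPM with RvD1 and at 29.8, 34.4 and 27.3 TPM with vehicle (log2 fold change −0.37, unadjusted p = 0.00903). Btg2, an antiproliferative gene, was at 47.9, 23.2 and 29.3 TPM and at 21.7, 18.2 and 21.7 TPM (log2 fold change 0.61, standard error 0.23, unadjusted p = 0.0245). Groups did not overlap for either gene in TPM or in log2 CPM, as for 11.4% and 9.62% of all genes tested. RvD1 replicate 1 held the highest value of Btg2.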
